A study of Mus musculus with 15 samples.

Results

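Kap, Slco1a1, Slc7a13, Cyp7b1, Akr1c14, Cyp4b1, Ldc1 and Pzp are genes of the mouse kidney proximal tubule whose expression depends on androgen. They were taken by name, by matching the gene symbol to the rows of a table of FPKM values (fragments per kilobase of transcript, scaled by the size of the library). All 8 were found among 17832 genes, and all 8 passed the expression filter, a mean of at least 0.5 FPKM over 15 libraries, that left 12869 genes for testing.

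Whole-kidney mRNA had been sequenced from male C57BLKS/J mice aged 22 weeks, in 3 groups of 5 libraries. In 1 group, db/db mice were given dapagliflozin at 1 mg/kg, which inhibits the tubular glucose transporter SGLT2. Another group of db/db mice received vehicle only, 0.5% methylcellulose, as did the m/m mice, the non-diabetic group, whose libraries are titled WT. The db/db genotype removes the signalling leptin receptor in the whole body and leads to obesity and diabetes. Separate animals are not stated as the source of the libraries of a group, so the p-values measure only how far these samples spread, part of which may be technical.

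In the male mouse kidney, testosterone from the testis acts on proximal tubule cells, above all in the straight segments, and holds the expression of a set of transporters and steroid- and lipid-metabolising enzymes far above that of females. Dihydrotestosterone, made by 5-alpha-reductases, is a more potent androgen, while 3-alpha-hydroxysteroid dehydrogenases inactivate it. Castration of male mice lowers such genes and testosterone raises them in females. Growth hormone and prolactin, through STAT5, act on some of the same sex-biased genes in the mouse liver.

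The upstream sequences of 4 of the genes are shown, because they are the regions next to the start sites of the gene with the highest level (Kap), the gene with the largest difference (Slco1a1) and the genes that hold the motif AGAACA (Cyp4b1 and Pzp). They are the 250 bases before the start site in RefSeq, build GRCm38.p6, all on the minus strand, at chr6:133853668-133853917 for Kap, chr6:141946963-141947212 for Slco1a1, chr4:115647722-115647971 for Cyp4b1 and chr6:128526721-128526970 for Pzp. Capitals mark AGAACA, 1 arm of the androgen response element, on either strand (TGTTCT on the opposite strand), and TATAAA, the TATA box.
Kap: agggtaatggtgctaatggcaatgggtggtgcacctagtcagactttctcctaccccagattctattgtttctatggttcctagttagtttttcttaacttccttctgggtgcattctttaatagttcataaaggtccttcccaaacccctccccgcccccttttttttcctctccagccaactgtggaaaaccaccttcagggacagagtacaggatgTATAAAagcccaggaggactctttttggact
Slco1a1: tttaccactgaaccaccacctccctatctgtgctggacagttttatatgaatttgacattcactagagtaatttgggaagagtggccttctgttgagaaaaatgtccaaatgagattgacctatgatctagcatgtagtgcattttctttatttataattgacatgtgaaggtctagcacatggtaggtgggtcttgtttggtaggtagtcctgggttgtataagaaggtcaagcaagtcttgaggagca
Cyp4b1: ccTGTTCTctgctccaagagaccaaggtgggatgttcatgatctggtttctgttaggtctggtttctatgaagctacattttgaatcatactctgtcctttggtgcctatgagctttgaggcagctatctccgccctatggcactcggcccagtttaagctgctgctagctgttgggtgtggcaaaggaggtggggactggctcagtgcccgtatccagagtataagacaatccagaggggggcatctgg
Pzp: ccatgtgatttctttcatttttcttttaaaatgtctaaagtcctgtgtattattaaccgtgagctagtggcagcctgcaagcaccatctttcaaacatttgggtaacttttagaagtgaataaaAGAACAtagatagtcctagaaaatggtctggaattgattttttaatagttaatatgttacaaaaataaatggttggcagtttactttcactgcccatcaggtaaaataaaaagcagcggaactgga
Of the 8 genes, 6 had an upstream sequence in the RefSeq set used here (not Cyp7b1 and Slc7a13). The letters TATAAA stood at −31 to −26 in Kap alone of the 6, and in 7.59% of 32851 windows of the same length, read on the strand of the gene. AGAACA, searched on both strands, stood at −248 to −243 in Cyp4b1 and at −126 to −121 in Pzp. That is 2 of 6 windows, against 16.1% of all windows. The whole palindrome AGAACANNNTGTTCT, which contains this arm, stood in 0 of 6 and in 0.00913% of all. The STAT5 palindrome TTCNNNGAA stood in 1 of 6, Cyp4b1, against 7.02% of all. These are matches of letters and not binding sites, and a window without them says nothing on the factors.

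Depth split the libraries into a high-read set and a low-read set. Reads per library, recovered from the FPKM values, were 14.8 to 16.4 M in the high-read set, which holds db/db vehicle 1, 2 and 3 and the m/m libraries. They were 1.60 to 2.29 M in the low-read set, which holds the dapagliflozin libraries and db/db vehicle 4 and 5. Genotype was therefore compared in high-read libraries (3 db/db vehicle against 5 m/m) and dapagliflozin in low-read libraries (5 dapagliflozin libraries, which counted as 4 samples, against 2 db/db vehicle). Between db/db vehicle 4-5 and 1-3, of the same genotype and treatment, 61.1% of tested genes were called (42.3% lower and 18.8% higher). Of the 8 androgen-dependent genes 1 was, Cyp7b1, at −0.67 on the log2 scale (limma, adjusted p = 0.0331).

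Some low-read libraries were more alike than others. The variance between the read numbers of 2 libraries, over genes with 20 to 99 reads and relative to the variance that sampling alone gives, was under 1 in 4 of 21 low-read pairs. These were dapagliflozin 2 and 3 (0.724), dapagliflozin 1 and db/db vehicle 5 (0.729), dapagliflozin 5 and db/db vehicle 4 (0.758), and dapagliflozin 1 and 2 (0.885). The other low-read pairs lay between 1.2 and 2.61, and high-read pairs of 1 group between 1.84 and 7.5. Over all genes with at least 20 reads 1 pair was under 1, dapagliflozin 1 and vehicle 5 (0.998). There dapagliflozin 2 and 3 had 1.02, dapagliflozin 5 and vehicle 4 had 1.66 and dapagliflozin 1 and 2 had 1.73, against 2.45 to 7.46 in the other low-read pairs. Dapagliflozin 2 and 3, which over genes with 20 to 99 reads differed by less than the sampling noise, were counted as 1 sample, the mean of both, except in the alternatives that kept them apart. Dapagliflozin 1 and 2 were kept apart, and so were pairs across treatment groups. With dapagliflozin 1, 2 and 3 counted as 1 sample 0 of the 8 genes were called with the drug, and the drug differences are also given without dapagliflozin 1 and 5. The cause of the likeness was not tested.

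**Figure D1:**
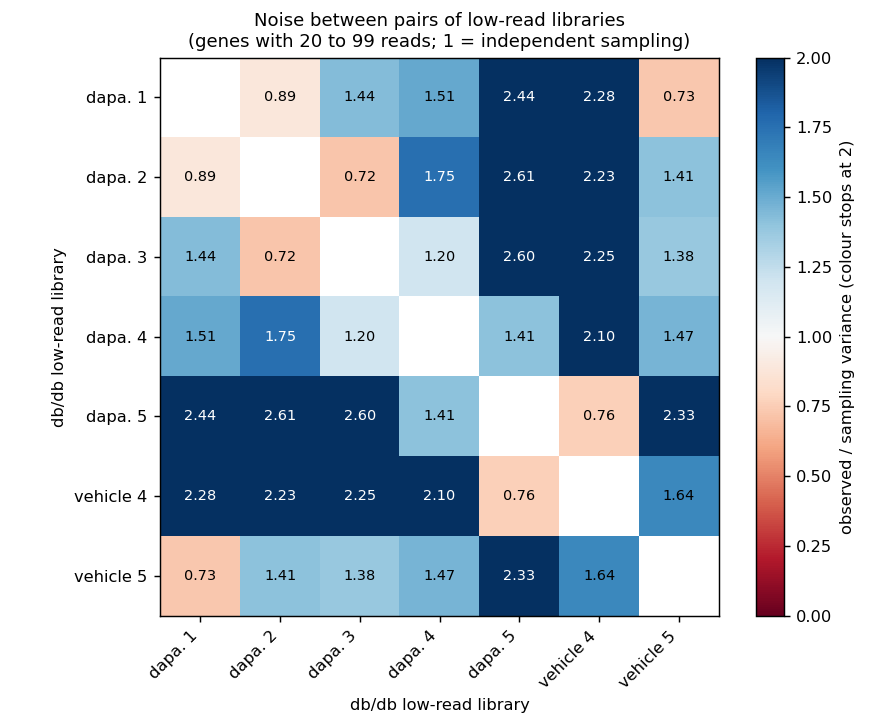
Variance of read numbers between each pair of the 7 low-read db/db libraries, divided by the variance of independent sampling, over genes with 20 to 99 reads. Values under 1 (red) link dapagliflozin 1 with vehicle 5 (0.73) and dapagliflozin 5 with vehicle 4 (0.76), across the treatment groups.

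Comparing db/db vehicle with m/m kidneys asks how the diabetic genotype goes along with the androgen-dependent genes. All 8 fell in db/db vehicle kidneys, and in all 8 the highest db/db library lay under the lowest m/m library. Over all tested genes 37.8% were called, 8.31% lower and 29.5% higher, and the db/db values lay entirely under the m/m values in 10.2% and entirely over them in 37.5%. The median difference of the 8 genes was −4.00 in log2(FPKM + 1), against 0.16 for all tested genes. Their summed reads took 0.193% to 0.373% of the reads of the db/db vehicle libraries 1 to 3, against 3.03% to 3.62% in the m/m libraries. In whole-kidney RNA, fewer cells of a type and less RNA per cell cannot be told apart.

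The split of all calls depended on scaling. As deposited, 1070 genes fell and 3799 rose, so that 22.0% of the called genes were lower. After median-of-ratios scaling, which moved the median of all genes from 0.16 to about 0 (−0.0046), 61.2% of 3838 called genes were lower, and after quantile normalization 52.4% of 3363. The 8 androgen-dependent genes fell under both, with medians of −4.16 and −3.96.

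Kap encodes a small protein of the proximal tubule that has long served as a marker of androgen action in the mouse kidney. It had 1989, 4050 and 1304 FPKM in db/db vehicle 1 to 3, against 42276, 39556, 45497, 39835 and 40876 FPKM in m/m 1 to 5. Vehicle 2 was the highest db/db library, at 0.102 of the lowest m/m library, and the groups did not overlap. The db/db mean was 5.88% of the m/m mean and the difference was −4.25 (95% interval −4.83 to −3.66, limma adjusted p = 1.87e-07). Kap ranked 1 among all genes in each m/m library and between 4 and 16 in db/db vehicle 1 to 3, so it remained among the most abundant mRNAs.

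The transporters were Slco1a1 and Slc7a13. Slco1a1 takes up organic anions such as bile acids and steroid conjugates. It had 1.57, 2.67 and 1.65 FPKM in db/db vehicle 1 to 3, against 250.7, 152, 290.4, 202 and 224 FPKM in m/m 1 to 5. Every db/db library was far under every m/m library, and m/m 2 and m/m 3 marked the ends of a 1.91-fold range within m/m. The db/db mean was 0.878% of the m/m mean, with a difference of −6.23 (95% interval −6.64 to −5.82, limma adjusted p = 1.41e-10). The position of Slco1a1 among all genes was between 9560 and 10922 in db/db vehicle libraries and between 173 and 424 in m/m libraries. Sequence windows of 75 bases shared with other genes, among them Slco1a4, Slco1a5 and Slco1a6, made up 1.08% of its exons.

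Slc7a13, a cystine, aspartate and glutamate transporter of the straight proximal tubule, had 17.2, 54.4 and 51.5 FPKM in db/db vehicle 1 to 3, against 492, 417, 515, 406 and 454 FPKM in m/m 1 to 5. Vehicle 1 stood apart at the low end, and the range within the db/db libraries was 3.16-fold, against 1.27-fold in m/m. The groups did not overlap, and the difference was −3.60 (95% interval −4.30 to −2.90, limma adjusted p = 3.30e-06). Slc3a1, the subunit that carries Slc7a13 to the cell surface, fell as well, by 0.44 (315 FPKM in db/db vehicle libraries, 426 FPKM in m/m libraries, limma adjusted p = 0.0019).

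**Figure D2:**
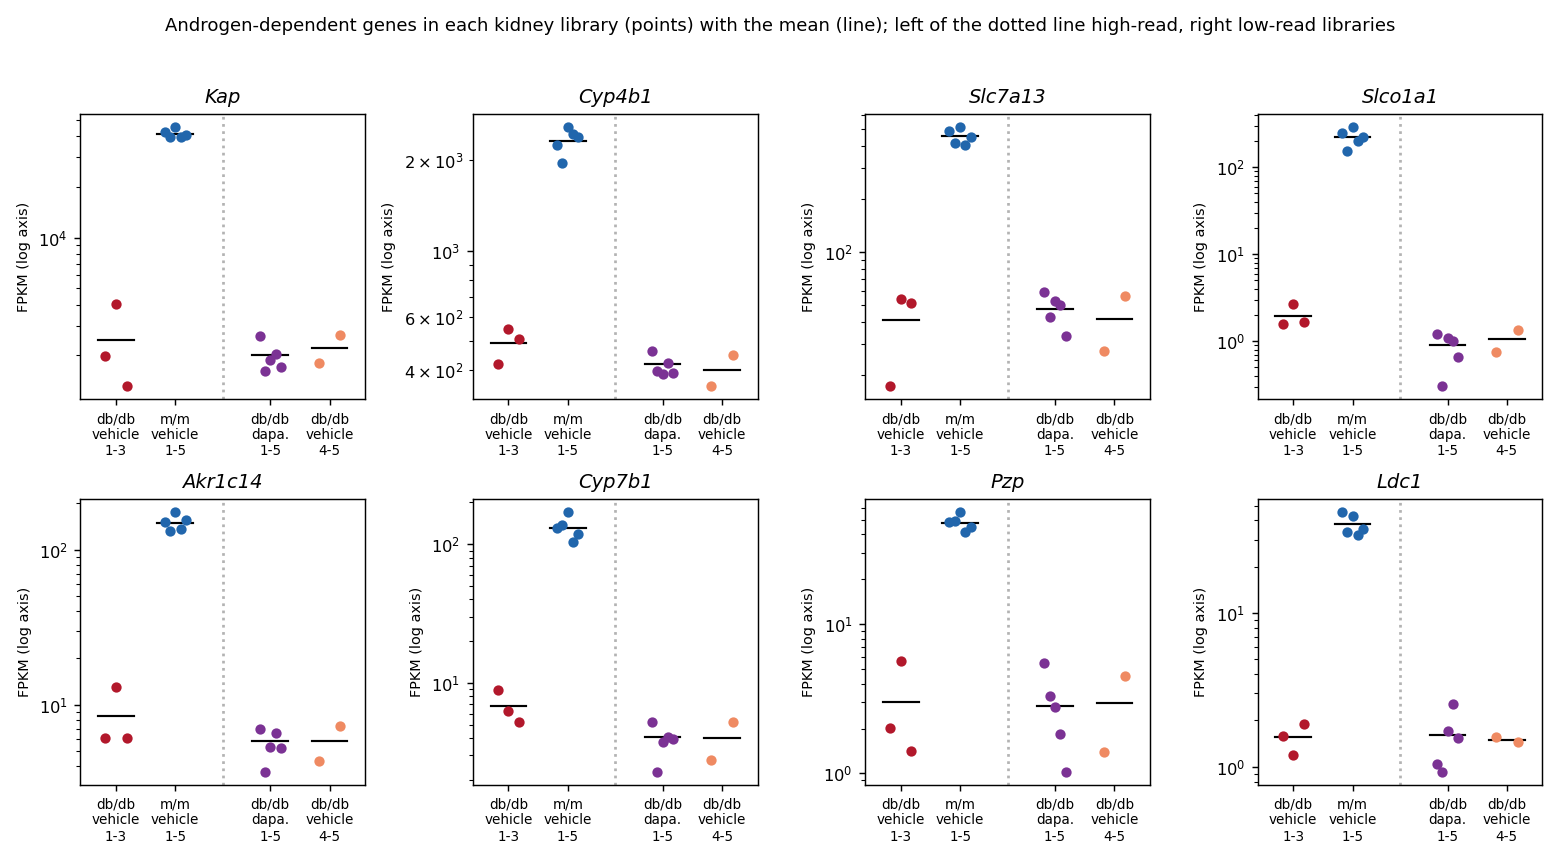
FPKM (log axis, with its own range in each panel) of the 8 genes in each library (points), with the mean of each group (line; dapagliflozin 2 and 3 count as 1 sample). High-read libraries stand left of the dotted line and low-read libraries right of it: db/db vehicle 1-3 lie under m/m in all 8 panels (Kap 1304 to 4050 against 39556 to 45497 FPKM), while the dapagliflozin points overlap those of db/db vehicle 4-5.

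Among the enzymes, Cyp7b1 hydroxylates oxysterols and also androgens and their precursors at carbon 7. Its level was 8.91, 6.31 and 5.25 FPKM in db/db vehicle 1 to 3, against 130.3, 137, 170.0, 103 and 119 FPKM in m/m 1 to 5. Here vehicle 1, not vehicle 2, was the highest db/db library, and the groups were far apart. The difference was −4.09 (95% interval −4.52 to −3.66, limma adjusted p = 1.72e-08).

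Akr1c14 is a 3-alpha-hydroxysteroid dehydrogenase, which inactivates dihydrotestosterone. It had 6.11, 12.9 and 6.11 FPKM in db/db vehicle 1 to 3, against 150.3, 133, 175, 137 and 155 FPKM in m/m 1 to 5. Vehicle 2 was again the highest db/db library, at 0.0973 of the lowest m/m library. The difference was −4.08 (95% interval −4.54 to −3.62, limma adjusted p = 3.64e-08). Exons of the pseudogene Gm18857 overlap those of Akr1c14 on the same strand in GRCm38, and 5.06% of its windows are shared with it, so part of the reads could belong to either.

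Cyp4b1 hydroxylates fatty acids and foreign compounds. It had 419.8, 549.6 and 509 FPKM in db/db vehicle 1 to 3, against 2254, 1964, 2584, 2451 and 2388 FPKM in m/m 1 to 5. The groups did not overlap, and the spread within each was narrow, 1.31-fold in db/db and 1.32-fold in m/m. Its difference, −2.24 (95% interval −2.48 to −2.0, limma adjusted p = 1.93e-08), was the smallest of the 8 in size, leaving 21.2% of the m/m mean. Of its windows, 5.59% are shared with its own pseudogenes.

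Ldc1, a relative of ornithine decarboxylase that decarboxylates leucine, had 1.59, 1.2 and 1.89 FPKM in db/db vehicle 1 to 3, against 45.2, 33.6, 43.0, 32.1 and 35.0 FPKM in m/m 1 to 5. Vehicle 2 was the lowest db/db library for this gene, unlike for the others. The difference was −3.92 (95% interval −4.27 to −3.56, limma adjusted p = 3.87e-09), with 46 to 72 reads behind each db/db value.

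Pzp belongs to the alpha-2-macroglobulin family of protease inhibitors. It had 2.0, 5.66 and 1.41 FPKM in db/db vehicle 1 to 3, against 48.3, 49.5, 56.3, 41.4 and 44.5 FPKM in m/m 1 to 5. Vehicle 2 was the highest db/db library by far, in a 4.01-fold range, and the groups did not overlap. The difference was −3.74 (95% interval −4.56 to −2.93, limma adjusted p = 9.66e-06). An antisense gene, Gm10069, overlaps Pzp exons in GRCm38, and the strand setting of the counting is not given in the sources used here, so the Pzp values are uncertain to that extent.

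Vehicle 2 was the highest of db/db vehicle 1 to 3 in 6 of 8 genes, while vehicle 3 was the lowest in 4, vehicle 1 in 3 and vehicle 2 in 1. Of the m/m libraries m/m 3 was the highest in 7 of 8 genes, and m/m 2 and m/m 4 were the lowest in 4 each. These counts were not tested. In m/m kidneys the order of the mean levels in FPKM, which are per length, was Kap, Cyp4b1, Slc7a13, Slco1a1, Akr1c14, Cyp7b1, Pzp and Ldc1. Neighbours in this order overlapped for Slco1a1 and Akr1c14, for Akr1c14 and Cyp7b1, and for Pzp and Ldc1.

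**Figure D3:**
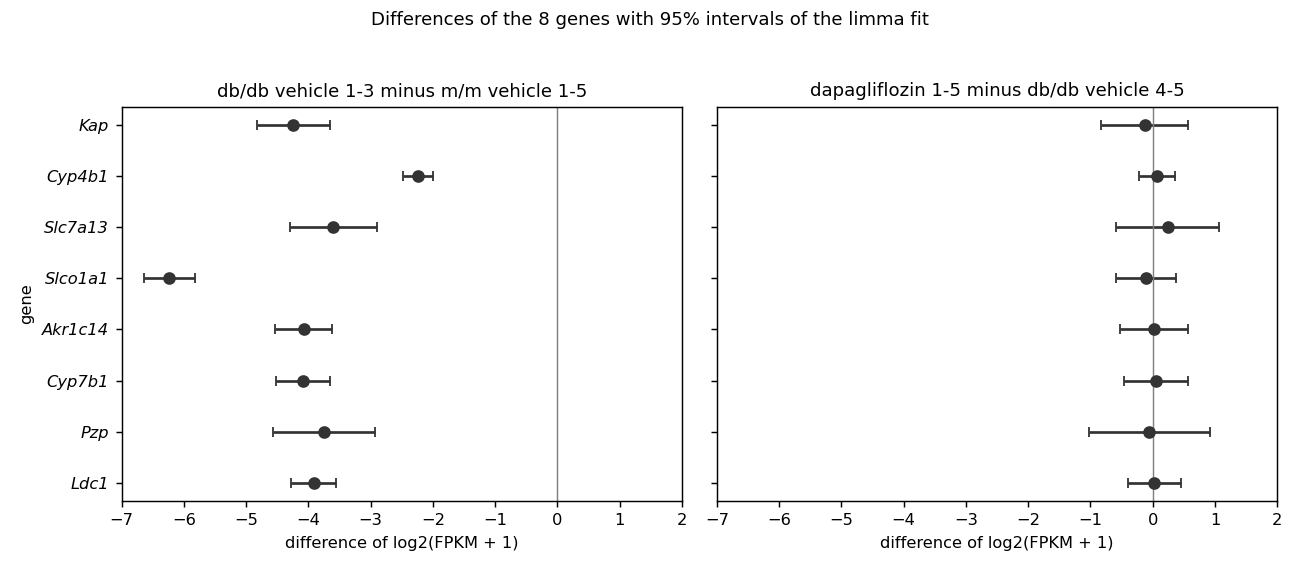
Difference in log2(FPKM + 1) of each of the 8 genes (points) with the 95% interval of the limma fit (bars), for db/db vehicle 1-3 minus m/m 1-5 on the left and dapagliflozin minus db/db vehicle 4-5 on the right. On the left every interval lies under 0, from −6.23 for Slco1a1 to −2.24 for Cyp4b1, and on the right every interval includes 0.

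Comparing dapagliflozin with db/db vehicle asks whether the SGLT2 inhibitor went along with a change of the same genes. By limma 0 of 8 were called, and 0 of 8 had an unadjusted p under 0.05. Over all tested genes 0.28% were called in this comparison (0.148% lower and 0.132% higher), and 12.7% had an unadjusted p under 0.05. The median difference of the 8 genes was 0.03, against −0.02 for all tested genes. In all 8 genes the dapagliflozin and vehicle values overlapped, while over all tested genes they lay apart in 8.31% (treated lower) and 7.13% (treated higher). Without dapagliflozin 1 and 5, when 477 genes were called over the whole table, 0 of 8 were, with differences from −0.22 for Kap to 0.31 for Slc7a13.

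Kap had 2605, 1607, 1873, 2021 and 1702 FPKM in dapagliflozin 1 to 5, against 1793 and 2644 FPKM in db/db vehicle 4 and 5. Dapagliflozin 1 was the highest treated library, next to vehicle 5, and the groups overlapped. The difference was −0.13 (95% interval −0.82 to 0.56, limma adjusted p = 0.919).

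Slco1a1 was measured from few reads in this set, with 1.21, 0.301, 1.10, 1.02 and 0.661 FPKM in dapagliflozin 1 to 5, against 0.760 and 1.33 FPKM in db/db vehicle 4 and 5. These values stand for 2 to 9 reads in the dapagliflozin libraries and for 6 and 10 reads in the vehicle libraries. The groups overlapped, and the difference was −0.11 (95% interval −0.59 to 0.38, limma adjusted p = 0.901).

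Slc7a13 had 59.6, 42.5, 52.6, 50.2 and 33.4 FPKM in dapagliflozin 1 to 5, against 27.3 and 56.6 FPKM in db/db vehicle 4 and 5. The vehicle libraries lay at either end, vehicle 4 under all treated libraries and vehicle 5 under dapagliflozin 1 only. The difference, 0.24 (95% interval −0.59 to 1.07, limma adjusted p = 0.857), was the largest of the 8 in size.

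The steroid and lipid enzymes overlapped likewise. Cyp7b1 had 5.23, 2.29, 3.71, 4.07 and 3.91 FPKM in dapagliflozin 1 to 5, against 2.78 and 5.18 FPKM in db/db vehicle 4 and 5, from 9 to 23 reads (0.05, 95% interval −0.47 to 0.56). Akr1c14 had 6.97, 3.69, 5.35, 6.57 and 5.25 FPKM in dapagliflozin 1 to 5, against 4.31 and 7.27 FPKM in db/db vehicle 4 and 5 (0.03, 95% interval −0.52 to 0.57). Dapagliflozin 2 was the lowest library for both genes. Cyp4b1, the best measured of the 3 with at least 1198 reads in every library, had 464, 398, 389.9, 424 and 391 FPKM in dapagliflozin 1 to 5, against 353 and 449.9 FPKM in db/db vehicle 4 and 5. Its difference was 0.07 (95% interval −0.22 to 0.35, limma adjusted p = 0.893), the narrowest interval of the 8.

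Ldc1 had 1.04, 0.928, 1.7, 2.54 and 1.53 FPKM in dapagliflozin 1 to 5, against 1.56 and 1.44 FPKM in db/db vehicle 4 and 5, from 4 to 13 reads (0.03, 95% interval −0.39 to 0.45). Pzp had 5.48, 3.32, 2.80, 1.83 and 1.03 FPKM in dapagliflozin 1 to 5, against 1.40 and 4.52 FPKM in db/db vehicle 4 and 5 (−0.05, 95% interval −1.02 to 0.92). For both genes the treated libraries reached above and below the vehicle libraries.

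The upper bounds of the 8 drug intervals ran from 0.35 for Cyp4b1 to 1.07 for Slc7a13, while the genotype differences ran from −2.24 for Cyp4b1 to −6.23 for Slco1a1. Slco1a1 (2 to 10 reads in each low-read library) and Ldc1 (4 to 13 reads) lay near the added 1 FPKM. Their differences are understated on this scale, so their intervals say little on fold changes. The 8 drug intervals take their spread from all 14 samples in the fit, and the pairs that link treated and vehicle libraries bear on them directly. Over the 8 genes, the median size of the log2 difference was 0.0636 between dapagliflozin 1 and vehicle 5 and 0.191 between dapagliflozin 5 and vehicle 4, against 0.599 between vehicle 4 and vehicle 5.

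A wider list of 16 androgen-responsive or male-biased genes of the mouse kidney changed more unevenly by genotype. Of the 16, 13 fell, 2 rose and 1 did not pass the test. Their median was −1.86, against 0.16 for all tested genes, of which 8.31% fell and 29.5% rose. The fatty acid hydroxylase Cyp4a12a fell by 2.38 (25.9 FPKM in db/db vehicle libraries, 139.8 FPKM in m/m libraries) and the related Cyp2j13 fell by 2.70 (20.6 FPKM in db/db vehicle libraries, 133 FPKM in m/m libraries). Acsm3, an acyl-CoA synthetase, fell by 4.71 (11.8 FPKM in db/db vehicle libraries, 311 FPKM in m/m libraries) and overlaps Eri2 on the opposite strand. The alcohol dehydrogenase Adh1 fell by 2.08 (84.0 FPKM in db/db vehicle libraries, 362 FPKM in m/m libraries) and overlaps an antisense gene. The 2 genes that rose were Fkbp5, a chaperone of steroid receptors that glucocorticoids induce too (1.14), and Cyp4a12b (1.16). They are named after their values were seen, as is Cyp2d9, which did not pass (−0.62, limma adjusted p = 0.0554, called in 5 of 27 alternatives). Cyp4a12a and Cyp4a12b share 40.8% and 41.3% of their windows with each other, so their opposite differences are uncertain. With dapagliflozin 0 of 16 were called (1, Cyp4a12a, at an unadjusted p under 0.05). Among all tested genes 0.28% were called with the drug and 12.7% had an unadjusted p under 0.05.

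**Figure D4:**
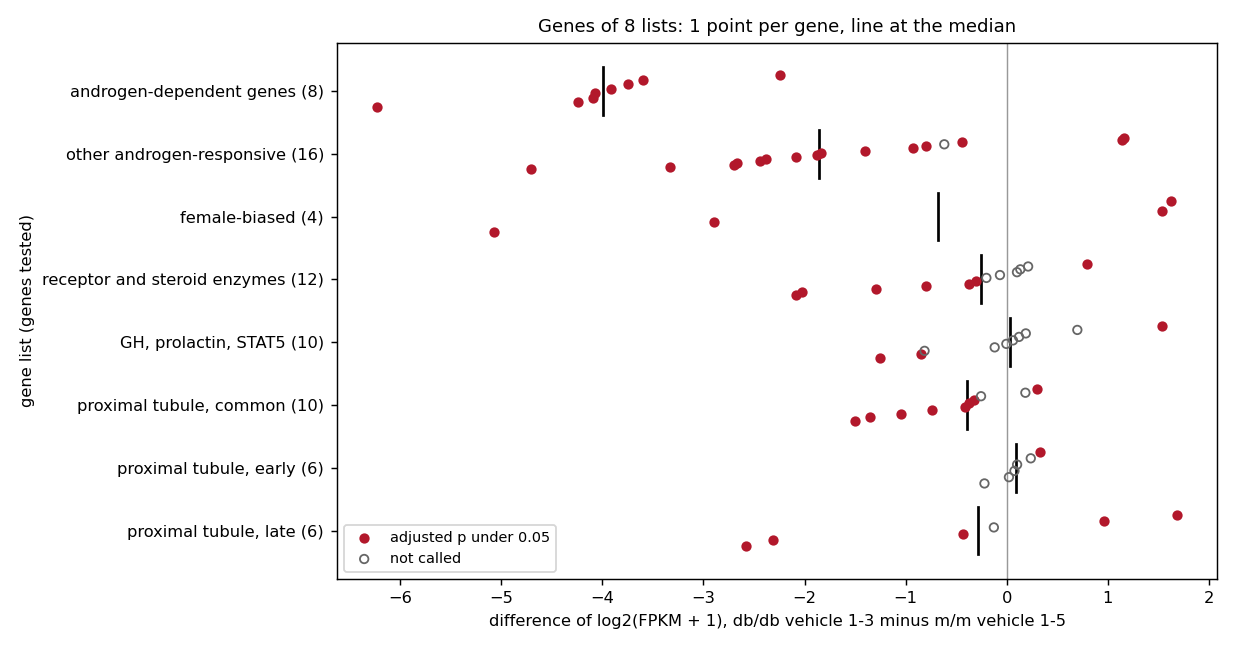
Difference in log2(FPKM + 1), db/db vehicle 1-3 minus m/m 1-5, of each tested gene (point) in 8 gene lists, with the list median (line); filled points passed an adjusted p of 0.05. The 8 androgen-dependent genes lie between −6.23 and −2.24, and the medians of the other lists lie between −1.86 and 0.09.

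Female-biased kidney genes did not mirror this. Of 4, the prolactin receptor Prlr rose by 1.54 and the amino acid transporter Slc7a12 by 1.63, while the steroid hydroxylase Cyp2a4 fell by 2.90 and the organic anion transporter Slc22a7 by 5.07. Slc7a12, of the same family as Slc7a13, had 35.7 ± 11.2 FPKM in db/db vehicle libraries (SD, n = 3) and 11.2 ± 4.50 FPKM in m/m libraries (SD, n = 5), and its call was lost when all libraries were pooled (0.93, limma adjusted p = 0.122). Cyp2a4 shares 22.1% of its windows with related genes and is uncertain. No female mice were sequenced, so sex bias itself was not tested here.

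Of 12 tested genes of androgen signalling and androgen metabolism, 6 fell and 1 rose, where 8.31% of all tested genes fell and 29.5% rose. The same calls for these 7 were found under both scalings, where the coactivator Ncoa2 was called lower too. The list had a median of −0.25. The steroid dehydrogenase Hsd17b11 fell by 2.02 (82.5 FPKM in db/db vehicle libraries, 342 FPKM in m/m libraries). The 5-alpha-reductase Srd5a2, which makes dihydrotestosterone, fell by 2.09 (1.34 FPKM in db/db vehicle libraries, 9.40 FPKM in m/m libraries). The chaperone of steroid receptors Hsp90ab1 fell by 0.80 and the coactivator Ncoa4 rose by 0.80. The call of Hsd3b4 (−1.29, limma adjusted p = 0.0483) was lost in 12 of 27 alternatives and that of Srd5a1 (−0.30, limma adjusted p = 0.0293) in 6, both named after their values were seen. With dapagliflozin 0 of 12 were called (2, Ncoa4 and Srd5a2, at an unadjusted p under 0.05). The shares of all tested genes were 0.28% called and 12.7% at an unadjusted p under 0.05. Of 10 genes of hormone receptors and the STAT5 axis, 2 fell, 1 rose and 7 were not called. Among all tested genes 37.8% were called. The growth hormone receptor Ghr fell by 1.26 (104 FPKM in db/db vehicle libraries, 247 FPKM in m/m libraries). The estrogen receptor Esr1 fell by 0.85, and Prlr rose. Stat5b had 7.21 FPKM in both groups, a difference of −0.0037 (limma adjusted p = 0.979).

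Relatives of the 8 genes moved both ways. Of 12 tested, 4 fell and 5 rose, also under both scalings, where as deposited 8.31% of all tested genes fell and 29.5% rose. The median of the 12 was 0.26 (0.10 after median-of-ratios scaling and 0.0099 after quantile normalization). Slco1a6, which lies near Slco1a1, fell by 1.05 (54.8 FPKM in db/db vehicle libraries, 112 FPKM in m/m libraries). Ornithine decarboxylase, Odc1, a relative of Ldc1 and itself androgen-responsive, fell by 1.84, with 16.6% of its windows shared with pseudogenes. Of the relatives of Akr1c14, Akr1c18 fell by 2.25 and Akr1c13 rose by 1.91 (20.9 FPKM in db/db vehicle libraries, 4.80 FPKM in m/m libraries). A2m, a relative of Pzp, was under the filter, at 0.0065 FPKM in db/db vehicle libraries and 0.229 FPKM in m/m libraries.

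Genes that lie next to the 8 moved both ways. Of the 32 genes within 2 places on either side (RefSeq order, GRCm38), 26 were tested, of which 6 fell, 9 rose and 11 were not called. The share that fell was 23.1%, against 8.31% of all tested genes, and the share that rose was 34.6%, against 29.5%. After median-of-ratios scaling 34.6% fell, against 18.3% of all, and 26.9% rose, against 11.6%. After quantile normalization 30.8% fell, against 13.7%, and 30.8% rose, against 12.4%. The 6 that fell as deposited, named after their values were seen, were Smim10l1 beside Kap (−0.21), Slco1a6 beside Slco1a1, Mtfr1 beside Cyp7b1 (−0.25), Wwp1 beside Slc7a13 (−0.87), Akr1c18 beside Akr1c14 and Fkbp4 beside Pzp (−0.38). The 9 that rose as deposited are also named after their values were seen. They were Ybx3 near Kap (0.31), Gm6614 beside Slco1a1 (2.82), and Cyp4a31 (0.84) and Cyp4a32 (0.86) near Cyp4b1. The others were Atp6v0d2 (0.65) and Ttpa (0.86) near Slc7a13, Net1 (0.48) and Akr1c13 (1.91) near Akr1c14, and Fabp3 near Ldc1 (0.97). Gm6614 is among the genes that share windows with Slco1a1. The shares that fell and rose were not tested.

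Common markers of the proximal tubule remained abundant in db/db kidneys. The 10 common proximal tubule markers summed to 5399 to 6822 FPKM in db/db vehicle 1 to 3, against 7425 to 8338 FPKM in m/m libraries. Of them 7 fell and 1 rose (8 and 0 after median-of-ratios scaling, 6 and 1 after quantile normalization), with a median of −0.39. Of all tested genes 8.31% fell and 29.5% rose as deposited, 18.3% and 11.6% after median-of-ratios scaling, and 13.7% and 12.4% after quantile normalization. The largest differences among the 10 markers were those of Slc17a3 (−1.50), Acsm2 (−1.35) and Ggt1 (−1.05), and the endocytic receptor Lrp2 fell by 0.74. Named after their values were seen, Aqp1 (−0.32), Slc34a1 (−0.37) and Fbp1 (0.29), the gene that rose, lost their calls in 7, 5 and 11 of 27 alternatives. Of 6 early segment markers 1 rose, the bicarbonate transporter Slc4a4 (0.32), with a median of 0.09, but after median-of-ratios scaling 0 rose, 1 fell (the phosphate transporter Slc34a3, −0.43, named after its values were seen) and the median was −0.13. The early segment markers summed to 1111 to 1606 FPKM in db/db vehicle 1 to 3, against 1123 to 1432 FPKM in m/m libraries. Of 6 late segment markers 3 fell and 2 rose (4 and 2 after median-of-ratios scaling). The late segment markers summed to 1303 to 1581 FPKM in db/db vehicle 1 to 3, against 2908 to 3822 FPKM in m/m libraries, without overlap. Acy3 (−2.32) and the phospholipid flippase Atp11a (−2.58) fell, and the sugar transporters Slc5a10 (1.69) and Slc5a1 (0.96) rose.

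Of 7 transcription factors of the proximal tubule, 0 were called by limma. Hnf4a and Maf had an unadjusted p under 0.05, and Hnf4a was called after either scaling. Among all tested genes 37.8% were called and 46.8% had an unadjusted p under 0.05. Hnf4a had 216 FPKM in db/db vehicle libraries and 246 FPKM in m/m libraries (−0.18, limma adjusted p = 0.0532).

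Markers of other cells changed with genotype in part, where 29.5% of all tested genes rose. Injured tubule markers, 2 of 5 of which rose (Spp1 2.01, Lcn2 3.37), summed to 887 to 2379.8 FPKM in db/db vehicle libraries, against 269.9 to 354 FPKM in m/m libraries. Without vehicle 1, Lcn2 was not called (highest limma adjusted p of its alternatives 0.0533). Thick limb, distal and collecting duct markers rose in 4 of 7, among them Slc12a3 (1.02), and summed to 1435 to 1686 FPKM in db/db vehicle libraries, against 1203 to 1425 FPKM in m/m libraries. After median-of-ratios scaling 4 rose and 1 fell, Umod. Podocyte and endothelial markers rose in 3 of 6 (Nphs1 0.75) and summed to 177 to 212 FPKM in db/db vehicle libraries, against 131 to 149 FPKM in m/m libraries. After median-of-ratios scaling 3 rose and 2 fell, the endothelial genes Kdr and Emcn, and after quantile normalization 3 rose and 1 fell, Kdr. Umod, Kdr and Emcn are named after their values were seen. Leukocyte markers were called in 0 of 5, also at an unadjusted p under 0.05, and summed to 23.9 to 77.0 FPKM in db/db vehicle libraries, against 27.5 to 42.1 FPKM in m/m libraries.

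Hepatocyte markers rose in 2 of 5 (Serpina1a 0.79, and Fgb 1.07, whose call was lost in 10 of 26 alternatives), against 29.5% of all tested genes. These markers summed to 58.2 to 89.2 FPKM in db/db vehicle libraries, against 28.1 to 136 FPKM in m/m libraries. Adrenal cortex markers summed to under 1 FPKM in both groups, with Cyp21a1 at 0 in db/db vehicle 1 to 3, and so did adipocyte markers, with Adipoq at 0 in db/db vehicle 1 to 3 and Lep and Plin1 at 0 in m/m. In the low-read libraries the adrenal gene Star was higher, at 10.5 FPKM with dapagliflozin and 11.98 FPKM with vehicle. The hepatocyte sum was higher there too, at 161 to 199 FPKM with dapagliflozin and 190 to 197 FPKM with vehicle. Of 5 tested hepatocyte markers 1 was called higher and 1 lower in db/db vehicle 4-5 than in db/db vehicle 1-3. The part of any of these cells in the differences of the 8 genes was not tested.

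Genes with the most similar pattern were sought among 7260 genes by the Pearson correlation of log2(FPKM + 1) with the mean standardised values of the 8 genes over the 8 high-read libraries. The closest were Macrod2 (r = 0.998), Me1 (0.998), Phkb (0.997), Pmpcb (0.996) and Gas2 (0.996). These libraries fall into the same 2 genotype groups for every gene, and 326 genes had r over 0.95, so this is a description without a test. Malic enzyme, Me1, had 83.2 ± 6.15 FPKM in db/db vehicle libraries (SD, n = 3) and 217 ± 17.2 FPKM in m/m libraries (SD, n = 5). Macrod2 had 12.2 ± 1.23 FPKM in db/db vehicle libraries and 29.2 ± 1.71 FPKM in m/m libraries (SD). Their differences, −1.37 and −1.19, were smaller in size than that of any of the 8 genes.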

How the data were processed

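Total RNA of kidney was made into stranded mRNA libraries, per the labels' protocols. The values are FPKM per gene in 1 table that the authors deposited. Trimmomatic, HISAT2, Cufflinks and HTSeq with GRCm39 are named per the submitters' processing notes; versions and strand setting are not given in the sources used. FPKM values were whole multiples of 1 read (100% of values at a relative tolerance of 1e-08), which gave reads per gene and library. The recovery and the tests were tested on simulated data.

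Differences were tested with limma 3.58.1 in R 4.3.3 with an intensity trend on log2(FPKM + 1), with a mean of at least 0.5 FPKM as filter. All libraries were fitted together as 4 groups of genotype, treatment and library set, with dapagliflozin 2 and 3 averaged (14 samples), 2-sided, with Benjamini-Hochberg adjustment over 12869 genes and a threshold of 0.05. Fold changes on this scale understate changes of low genes. No count model was run. The 8 genes and all lists were chosen with earlier results of these data known.

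Named are the 8 genes, up to 4 called genes of each list by smallest adjusted p, markers that define a list, relatives, and the 5 genes of most similar pattern; other genes were picked once their values were known and are marked so. Some genes that met this rule are not reported here. GRCm38 annotation was used for shared 75-base windows, exon overlap, neighbours and upstream sequences, matched by symbol. Intervals are 95% intervals of the fit. Alternatives were other pseudocounts, filters and scalings, pooling, the 2 groups alone, separate dapagliflozin 2 and 3, a replicate block, leaving out each library and, chosen after seeing the data, leaving out dapagliflozin 1 and 5 together and counting dapagliflozin 1, 2 and 3 as 1 sample.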

Additional observations from a re-analysis of the deposited data

How the results depend on the processing

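All 8 genes fell in db/db vehicle kidneys under all 27 alternatives, and 0 of 8 were called with dapagliflozin under all 27. Not all 27 can move each difference: another filter, or leaving out a library outside the comparison, changed only the p-values. The wider androgen-responsive list had 14 to 16 of 16 called by genotype (12 to 14 fell) and 0 with dapagliflozin. Signs of the uncalled drug differences turned in several alternatives, and the cause was not tested. With all libraries pooled Cyp7b1 was at −0.35, Cyp4b1 at −0.11 and Akr1c14 at −0.23. With dapagliflozin 2 and 3 separate, Cyp7b1 was at −0.027, Akr1c14 at −0.038 and Ldc1 at −0.0084. Without dapagliflozin 1 and 5, Cyp7b1 was at −0.10 and Akr1c14 at −0.036, and after quantile normalization Pzp was at 0.012. Leaving out each library in turn gave −0.41 to 0.15 for Kap, −0.31 to 0.10 for Slco1a1, −0.27 to 0.75 for Slc7a13, −0.31 to 0.40 for Cyp7b1, −0.29 to 0.35 for Akr1c14, −0.11 to 0.24 for Cyp4b1, −0.13 to 0.14 for Ldc1 and −0.66 to 0.55 for Pzp.

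Whether the replicate numbers pair the samples could not be settled from so few libraries. Deviations of same-numbered db/db vehicle and m/m libraries from their group means had correlations of 0.381, 0.0538 and −0.0082. Of 3 db/db libraries 1 correlated best with its own number. With the replicate number as a block 8 of 8 genes fell by genotype and 0 of 8 were called with dapagliflozin (Cyp7b1 −0.11, Akr1c14 −0.010). Same-numbered dapagliflozin and vehicle libraries had −0.0535 and −0.724.

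Counts over all genes moved more. The genotype count of 4869 became 3170 pooled and 3370 to 5222 with a library left out. The drug count of 36 became 222 without a filter, 850 pooled, 477 without dapagliflozin 1 and 5, 69 with dapagliflozin 1, 2 and 3 as 1 sample, 1 with the 2 groups alone, 1 with the block and 1 to 126 with a library left out, lowest without db/db vehicle 4. Each low-read library had 2 to 10 reads for Slco1a1 and 4 to 13 for Ldc1, but at least 1198 for Cyp4b1. The drug comparison has 2 vehicle libraries.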
